A study of Nothobranchius furzeri with 228 samples.

Results

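The genes described here are the 200 whose transcript level varied least over the fin libraries of the turquoise killifish, *Nothobranchius furzeri*. They were chosen by the SD of log2(CPM + 1), where CPM is the count of a gene per fixed total of library counts, corrected by TMM for differences in library composition. Genes with a mean of at least 10 CPM were eligible, which left 9877 of the 26739 genes of the count table, and the 200 with the lowest SD were taken. Every one of them was also among the 17116 genes that entered the tests below. Fins of 114 male fish of the wild-derived strain MZM-0410 were clipped at 10 weeks of age and again at 20 weeks, under normal aging with no treatment, which gave 114 libraries per age and 228 in all. The fish were then followed until death. All fish share sex and strain, so that nothing in these data refers to females or to other strains, and the 20-week sample is always the second and later clip of a fish. The order of the clips and their dates thus cannot be told apart from age.

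A transcript is constant in a bulk sample when its synthesis and decay stay balanced and when the cells that make it do not change much in number. Genes of this kind typically serve functions that every cell needs, such as splicing of pre-mRNA, packing of chromatin, transport of membrane vesicles and turnover of proteins, and they are sought as internal references for measurements of other transcripts. A caudal fin holds a layered epidermis over dermal fibroblasts, bone-forming cells of the fin rays, pigment cells, vessels and nerves, and it grows and regrows after clipping. In a piece of such a tissue, fewer cells of a type and less RNA per cell cannot be told apart. Genes are named here after their best human match in gene tables of the study, and the roles given are those known for human and other vertebrate proteins. Of the 200 genes 60 (30%) carried such a name, against 34.85% of the 9877 eligible genes.

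Library totals ran from 15854077 to 37764097 counts, with medians between 22170479 and 24891860 over the ranges of fish and ages compared below. TMM factors ran from 0.639 to 1.172 and were under 0.8 in 4 libraries of 4 fish, 1 at 10 weeks and 3 at 20 weeks. In these 4 libraries the median deviation of the 200 genes from their own means lay between 0.063 and 0.15 on the log2 scale. Over all libraries it ran from -0.090 to 0.152, with an SD of 0.040, so that all 4 lay on the high side. For all eligible genes it lay between 0.018 and 0.068 in these 4 libraries, and between -0.059 and 0.078 over all libraries. The cause of this shift was not tested. In 11 of the 114 fish, 9 of them numbered 95 or above, each sample resembled that of another fish at the other age more than its own. Correlations between the ages, age changes and changes between ranges are therefore also given without these fish. Cox models are given with them only. Epidermal markers summed to between 2903 and 6817 CPM, with 5 of 13 listed genes found by name. Matrix and fibroblast markers summed to between 1798 and 14930 CPM, with 14 of 15 found. Markers of skeletal muscle, of which MYLPF and MYL1 were found, had a median sum of 0.596 CPM, and 505.7 CPM in the highest library. As most genes carry no name, listed genes that were not found may still have counts, and the sums are incomplete to that extent.

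The SD of the 200 genes ran from 0.092 to 0.149 around a median of 0.138, against a median of 0.325 over all eligible genes. On the linear scale their coefficient of variation had a median of 9.93%, against 23.5% over all eligible genes. In 157 of the 200 genes the highest of the 228 libraries was less than 2 times the lowest, as it was in 396 of the eligible genes (4.009%). These values follow from the way the genes were chosen and describe them only. At the limit, RAD21 (rank 199, SD 0.1488) and Nfu_g_1_013200 (rank 200, SD 0.149) were taken. FAM208A (rank 201, SD 0.149) and the next gene, Nfu_g_1_023072 (SD 0.1491), were not, so that the limit falls where genes hardly differ.

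**Figure D1:**
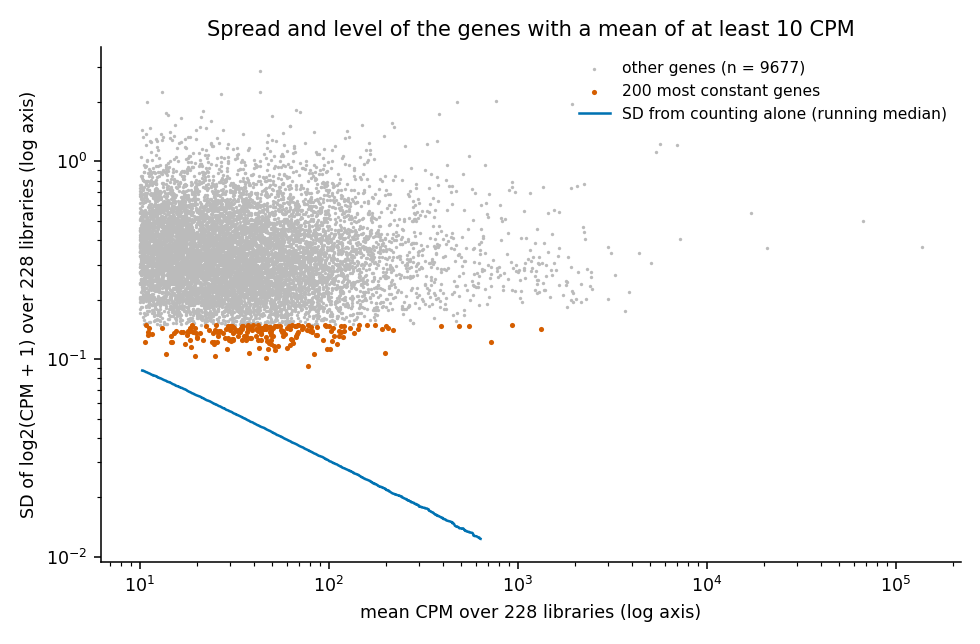
SD of log2(CPM + 1) against mean CPM, both over 228 libraries and on log axes, for the 200 most constant genes (orange) and the 9677 other eligible genes (grey). The blue line is the running median of the SD that counting alone would give. The 200 genes form the lower edge of the cloud, and most lie between 20 and 100 CPM.

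Constant genes were mostly of middling abundance, somewhat above the typical eligible gene. Their mean level had a median of 43.8 CPM, against 30.8 CPM over all eligible genes, and ran from 10.7 to 1329 CPM. There were 28 genes (14%) under 20 CPM, 141 between 20 and 100 CPM, 31 (15.5%) above that and 4 of these above 500 CPM. Among eligible genes 30.58% lay under 20 CPM, where counting error alone is large, and 12.61% above 100 CPM. Counting error had a median share of 11.3% of the variance of the 200 genes, against 2.51% over all eligible genes, and reached 50.4% in 1 of them, Nfu_g_1_005144, with 13.8 CPM. With the counting variance subtracted before the ranking, 166 of the 200 would have been chosen again. CPM is not divided by transcript length, so that a level says how many counts a gene drew and not how many molecules.

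Of the 60 named genes 13 stood on one of the lists of cellular machinery that were examined, and these fell on 4 lists. Of 49 eligible genes on a list of spliceosome components 3 were among the 200 (6.122%): PRPF6, a bridging protein of the tri-snRNP, CDC5L, a core protein of the PRP19 complex, and SMNDC1, a splicing factor related to the motor neuron survival protein. Of 77 genes for chromatin remodelling and histone modification 6 were among them (7.792%): KDM5B and KDM3B, both histone demethylases, BAZ2B, a bromodomain protein of ISWI remodellers, GATAD2A of the NuRD complex, BRD1, a scaffold of histone acetyltransferases, and RAD21, the kleisin subunit of cohesin. Lists of ubiquitin ligases and proteases and of vesicle traffic contributed 2 genes each, of 40 and 59: the deubiquitinase USP38 and the histone ubiquitin ligase RNF20, and VPS18, a subunit of endosomal tethering complexes, and NAPA, which helps to take SNARE complexes apart. For comparison, the 200 genes make up 2.025% of all eligible genes. Only genes with a name can stand on a list, and 60 of the 3442 eligible genes with a name were among the 200. Lists of neighbouring functions held none: 0 of 37 splicing regulators and hnRNPs, 0 of 18 genes of RNA polymerase II and Mediator, 0 of 35 of mRNA 3-prime end formation, decay and export and 0 of 35 of the nuclear pore were among the 200. Whole lists were less even than their members: 17 of 49 spliceosome and 30 of 77 chromatin genes lay above the median SD of all eligible genes. Median SD was 0.264, 0.274, 0.308 and 0.303 in the 4 lists with members, in the order given. In the 4 neighbouring lists without any it was 0.263, 0.237, 0.2855 and 0.429. Named genes are not a random sample of the genome, and these shares are given as counts without a test.

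Further lists had no named gene among the 200. As 140 of the 200 carry no name and 2.025% of eligible genes were chosen, nothing is read from a count of 0 in lists of this size. Of 57 cytosolic ribosomal proteins, with SD between 0.171 and 0.38, none was found by name, nor of 29 proteasome subunits, whose median SD was 0.424, of 31 translation factors, of 22 genes of oxidative phosphorylation or of 30 chaperones. Cell cycle and DNA replication genes had a median SD of 0.815 over 22 genes, and 0 of them were among the 200. A list of 28 names of genes that laboratories commonly use as references matched 15 eligible genes, with the names B2M and ATP5B held by 2 genes each. Names without an eligible match were not examined. The 15 genes had a median SD of 0.325, as in all eligible genes, and 0 of them were among the 200. The ribosomal stalk gene RPLP0 had the lowest SD of them, 0.184, which put it at rank 820, and the 2 genes that carry the name of the MHC light chain B2M lay at ranks 6641 and 9150. Among 3 eligible genes of a list of human genes with even levels over the body, EMC7, a subunit of a membrane protein insertase, was nearest at rank 325 with an SD of 0.158.

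**Figure D2:**
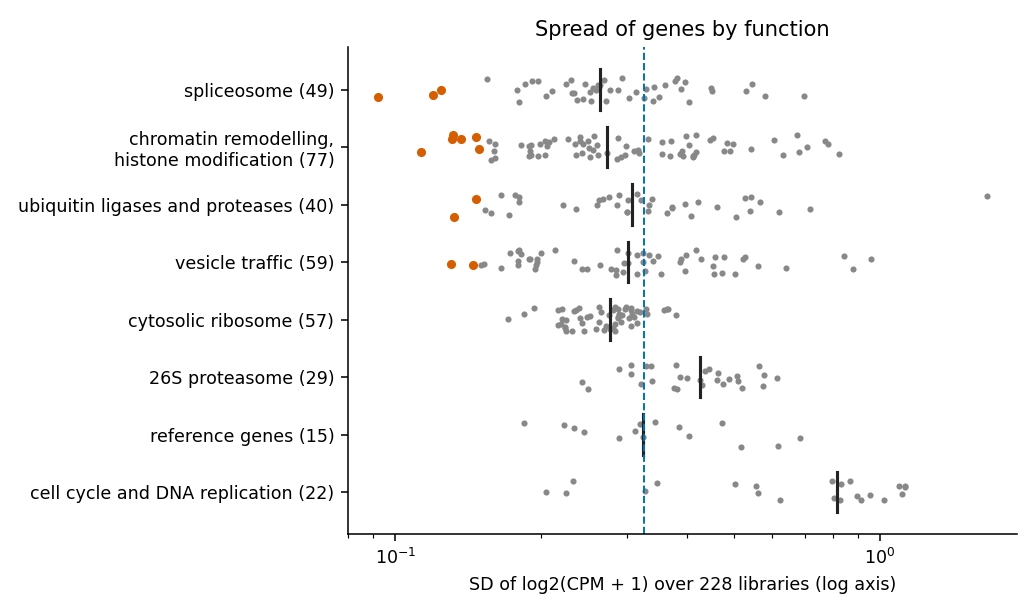
SD of log2(CPM + 1) over 228 libraries (log axis) for the eligible genes of 8 lists, with the number of genes in brackets. Each point is a gene, orange points belong to the 200 most constant genes, black bars are list medians and the dashed line is the median of all eligible genes, 0.325. Orange points occur in the upper 4 lists, and the proteasome and cell cycle lists lie to the right of the line for most of their genes.

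For 12 names held by a gene of the 200, another eligible gene had the same best human match. The KDM5B copy among the 200 had an SD of 0.113 at 97.7 CPM, and the other copy an SD of 0.227 at 93.6 CPM. DPF3, a subunit of BAF chromatin remodellers, had copies with SD of 0.113 and 0.423, and FLOT2, a membrane scaffold protein of the flotillin family, copies with 0.143 and 0.334. In BAZ2B and RNF20 both copies were among the more even genes, with SD of 0.131 and 0.158 in BAZ2B and 0.147 and 0.158 in RNF20. The libraries do not mark the strand and copies can share reads, so that these values, like those of overlapping genes, are uncertain to that extent.

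Other sets of 200 genes were also chosen on part of the libraries and measured in another part. They held 133 of the 200 genes described here when chosen at 10 weeks, 145 at 20 weeks, and 92 to 140 in a range of fish numbers. Both ages come from the same fish, and TMM factors were computed over all libraries. The set chosen at 10 weeks had a median SD of 0.147 in the 20-week libraries. It lay at a median percentile of 2.42 of all eligible genes there, with 180 genes in the lowest 10%. The set chosen at 20 weeks and measured at 10 weeks lay at a median percentile of 2.35, with 181 in the lowest 10%. Between ranges of fish numbers, each used in turn to choose 200 genes, the median percentile in another range lay between 2.09 and 4.87, and between 141 and 183 of 200 genes were in its lowest 10%. The lists themselves overlapped less: 91 genes were chosen at both ages, and 61 to 98 in each pair of ranges.

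Of the variance of a constant gene little fell between the groups of the design. The difference between the ages made up a median of 2.07% over the 200 genes, against 3.54% over all eligible genes, differences between ranges of fish numbers 3.84% against 4.08%, and the unequal change of the ranges 4.41% against 9.1%. Between fish of the same range lay 48.3%, against 44.1% over all eligible genes, and within fish 36.5% against 31.6%. With 2 clips per fish the share between fish also holds the spread of single clips. It therefore does not measure lasting differences between fish. These shares are parts of the SD by which the genes were chosen. The levels of a gene at 10 and at 20 weeks in the same fish were correlated after removal of the mean of each range at each age. Over 114 fish this correlation had a median of 0.147 in the 200 genes, against 0.163 over all eligible genes. It ran from -0.142 in FRG1 to 0.468 in ZBED1. Without the 11 unmatched fish the medians were 0.133 and 0.159. Between fish with neighbouring numbers at the same age the median correlation was 0.285 at 10 weeks and 0.255 at 20 weeks, with range means kept. With range means removed it was 0.202 and 0.172. All eligible genes had medians of 0.39 and 0.371 with range means kept, and of 0.283 and 0.229 with them removed. Pairs of the 200 genes were also correlated with the mean of each range at each age removed. The median correlation was 0.095 over 19900 pairs of genes and 228 libraries, with quartiles of -0.044 and 0.231. Pairs of eligible genes had a median of -0.0076, with quartiles of -0.194 and 0.194. Beyond 0.5 in either direction lay 1.578% of pairs, against 8.987% of pairs of eligible genes. The choice by a low SD and the larger counting share can limit strong correlations, and nothing is read from that lower share. The points of all these correlations share libraries and scaling.

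PRPF6 was the most constant gene of the fin, at a mean of 77.2 CPM. Its 114 libraries at 10 weeks ran from 65.9 over a median of 75.8 to 90.8 CPM, and those at 20 weeks from 65 over 78.3 to 98.9 CPM. The ages overlapped, as they did in all 200 genes. This does not set them apart, since in 0% of the 15766 tested genes with CPM values to compare did every library of an age lie above every library of the other. The unnamed gene Nfu_g_1_009375 came second with an SD of 0.101, and ran from 40.8 to 63.9 CPM around medians of 46.1 CPM at both ages. The third was ZNF180, a zinc finger protein, with medians of 24.5 and 24.8 CPM and an SD of 0.103.

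DPF3 and KDM5B followed among named genes, with medians of 29.1 and 28.8 CPM in DPF3 and of 99.1 and 97 CPM in KDM5B. After them came CDC5L (medians of 48.8 and 49.7 CPM), WDR45B, which binds phosphoinositides in autophagy (14.9 and 14.5 CPM), and FRG1, a nuclear RNA-binding protein (23.9 and 24.9 CPM). SMNDC1 had medians of 18.7 and 18.4 CPM, GRB2, the adaptor between receptor tyrosine kinases and Ras, 94 and 90.1 CPM, and ZZZ3, a subunit of the ATAC histone acetyltransferase, 46.5 and 46.7 CPM. The SD of these 10 named genes lay between 0.092 and 0.129. Among them the counting share of the variance was highest in WDR45B, at 36.2%.

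Of the constant genes with the highest counts, 3 had no name. Nfu_g_1_022544 drew a mean of 1329 CPM, from 1113 to 1680 CPM at 10 weeks and from 1003 to 1800.1 CPM at 20 weeks, and Nfu_g_1_001619 a mean of 936 CPM. Among named genes SLC25A3, the phosphate carrier of the inner mitochondrial membrane, was highest: its 10-week libraries ran from 418 over a median of 550.5 to 713 CPM and its 20-week libraries from 414 over 549.8 to 704 CPM. MYL6, a light chain of non-muscle myosin, had medians of 485 and 479 CPM, and CAPZA2, which caps actin filaments, of 389.97 and 392 CPM. The counting share of the variance of these 5 genes was at most 1.06%, in CAPZA2. FLOT2 and RAD21 had medians of 202.8 and 206 CPM and of 159 and 159 CPM.

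The first comparison was between the ages, within fish. The SD that chose the genes includes any difference between the ages and limits how far the age means of a gene can lie apart, to between 0.184 and 0.297 on the log2 scale over the 200 genes, so that small changes are given by the choice. Of the 200 genes 98 (49%) passed edgeR's quasi-likelihood test at an adjusted p under 0.05, where 61.6% of all tested genes did, and nothing about these genes is read from the lower share. Their direction was not fixed by the choice. Of the 200 genes 66 were higher at 20 weeks and 32 were lower. Over all 17116 tested genes 5483 (32%) were higher and 5054 (29.5%) were lower. The share of rises in the 200 was thus near that of all tested genes, and the share of falls was below it. Among the 60 named genes 15 were higher and 14 lower, so that the surplus of rises over falls lay in genes without a name. Nothing about the 200 genes is read from this split. With low counts kept in the fit the split of the 200 genes was 53 and 40, or 56.99% higher against 67.35%. Of the 98 calls 78 (51 higher, 27 lower) held in all 7 other fits. All changes were slight. The log2 fold change ran from -0.107 to 0.154 with a median of 0.0081, and its size had a median of 0.038, against 0.145 over all tested genes. Put as a fold, the level at 20 weeks was between 0.929 and 1.11 times that at 10 weeks.

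**Figure D3:**
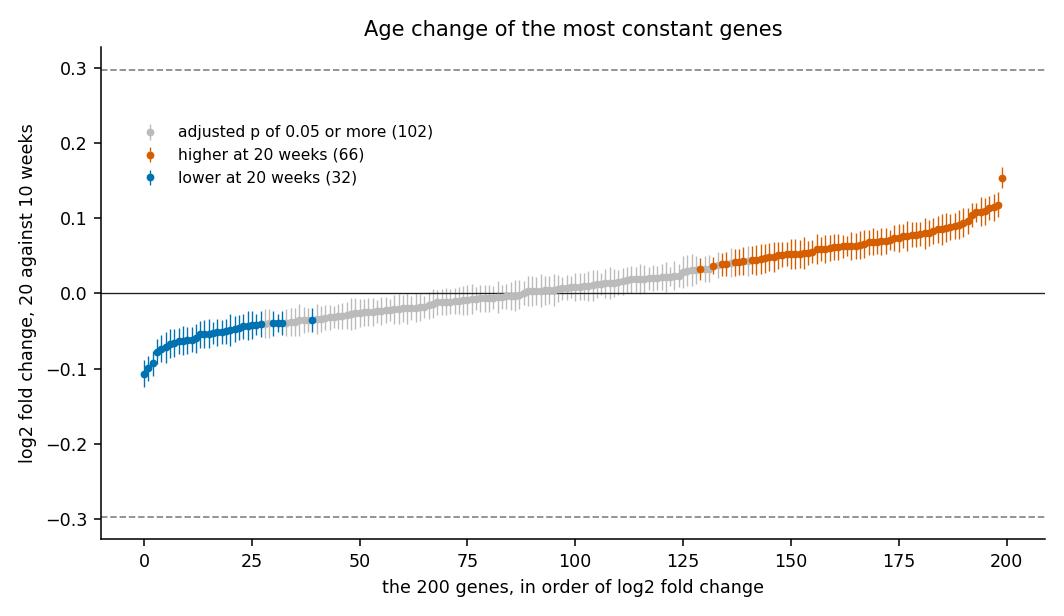
Log2 fold change from 10 to 20 weeks of the 200 most constant genes in order of size, with error bars of 1 SE from edgeR's quasi-likelihood fit with the fish as a block. Orange and blue points passed an adjusted p under 0.05, grey points did not. Dashed lines mark 0.297 in either direction, the largest difference of age means that the SD of any of these genes allows, and all points lie well inside them.

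Nfu_g_1_017829 changed most. It ran from 162 over a median of 189.5 to 226 CPM at 10 weeks and from 174 over 207 to 300.1 CPM at 20 weeks, with the higher level at 20 weeks in 88.6% of fish. The log2 fold change was 0.15 (SE 0.014), with an adjusted p of 1.32e-17 by edgeR. Nfu_g_1_005291 rose from a median of 76.8 to 83.8 CPM, a log2 fold change of 0.12 with an SE of 0.016 (adjusted p = 7.12e-10), and 85 fish had the higher level at 20 weeks. The ranges of the 2 ages overlapped in both.

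CMTR1, a methyltransferase of the mRNA cap, had the largest rise of a named gene. It ran from 26.3 over a median of 33.5 to 46.3 CPM at 10 weeks and from 27.1 over 36.3 to 43.6 CPM at 20 weeks, a log2 fold change of 0.11 with an SE of 0.019 (adjusted p = 4.03e-07), and a higher level at 20 weeks in 77 fish. It was followed by FAM21A, a subunit of the WASH complex that builds actin on endosomes (medians of 38.3 and 40.2 CPM, log2 fold change 0.082), KIAA1191 (45.4 and 47.7 CPM, 0.079), FAM177A1 (18.3 and 19.3 CPM, 0.076) and TAB2, an adaptor of the TAK1 kinase in inflammatory signalling (45.7 and 47.2 CPM, 0.074). Between 72 and 78 fish had the higher level at 20 weeks in each of these 4 genes, and adjusted p-values by edgeR ran from 9.66e-06 in KIAA1191 to 7.42e-04 in FAM177A1.

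TCF3, a bHLH transcription factor also known as E2A, had the largest fall of a named gene. It ran from 50.03 over a median of 68.5 to 85.5 CPM at 10 weeks and from 49.1 over 64 to 82.6 CPM at 20 weeks, a log2 fold change of -0.11 with an SE of 0.018 (adjusted p = 1.98e-07), and 35 of 114 fish had the higher level at 20 weeks. PPP1CC, a catalytic subunit of protein phosphatase 1, fell from a median of 100.1 to 93 CPM (log2 fold change -0.093, SE 0.016, adjusted p = 4.03e-07). Smaller falls were found in ZBED1, a zinc finger protein derived from a transposase (medians of 62.4 and 59.2 CPM, log2 fold change -0.078), PLEKHA1, which binds phosphoinositides (63.1 and 60.4 CPM, -0.073), and ZNF362, a zinc finger protein (29.98 and 28.6 CPM, -0.067). Of the unnamed genes Nfu_g_1_021788 fell most, from a median of 64.7 to 59.9 CPM, and was higher at 20 weeks in 28 fish.

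Of the 10 most constant named genes 5 passed the test. PRPF6 (log2 fold change 0.037, SE 0.012), CDC5L (0.052) and FRG1 (0.063) rose, and KDM5B (-0.039) and GRB2 (-0.052) fell, with adjusted p-values by edgeR between 0.00118 in GRB2 and 0.0299 in KDM5B. WDR45B (-0.039, adjusted p = 0.0637 by edgeR) and SMNDC1 (-0.032, adjusted p = 0.0883) did not pass but did in some other fits. FLOT2 (0.045, adjusted p = 0.0415 by edgeR) passed. It lost its call in edgeR with DESeq2's size factors (adjusted p = 0.0676) and with low counts kept (adjusted p = 0.085). The call was also lost in DESeq2 without the block (adjusted p = 0.0569). Of the chromatin genes only BAZ2B passed besides KDM5B, with a rise of 0.062, and of the vesicle traffic genes VPS18, with a fall of 0.047. GATAD2A, RAD21, USP38, RNF20 and NAPA had log2 fold changes between -0.025 and 0.031 and did not pass.

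The whole lists from which these genes came are given for comparison, without a test of the list. Of 49 eligible spliceosome genes 7 were higher and 22 lower at 20 weeks, with a median log2 fold change of -0.074, while 2 of the 3 among the 200 were higher and none was lower. Of 77 chromatin genes 25 were higher and 28 lower, around a median of -0.0049. Ribosomal proteins, none of them among the 200, were higher in 53 of 57 and lower in none, with a median of 0.227, and cell cycle genes were lower in 19 of 22, with a median of -0.594. Over all tested genes the median was 0.0037. The summed level of matrix and fibroblast markers was lower at 20 weeks in every range of fish, with medians of 6531 against 9214, 3706 against 7441 and 7127 against 11490 CPM, and its part in the changes of the 200 genes was not tested.

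Differences between ranges of fish numbers were examined next. The labels give no batch, date or tank, and the numbers of the fish were taken as 3 ranges: 1 to 50 (48 fish), 51 to 84 (34 fish) and 85 and above (32 fish). The limits of the ranges were set with expression data known, so that the p-values describe these fish. The tests also treat fish as independent. Within ranges, however, fish with neighbouring numbers were correlated, at medians of 0.202 and 0.172 over the 200 genes at 10 and 20 weeks. At 10 weeks this ran from -0.243 to 0.631, with 0.414 in CMTR1 and 0.478 in ZBED1. The p-values between ranges can therefore be too small. At 10 weeks 120 of the 200 genes (60%) differed between the ranges by edgeR's quasi-likelihood F test, where 68.4% of all tested genes did, and at 20 weeks 132 (66%), where 79.1% did. Differences between ranges are also part of the SD, and nothing is read from the lower shares. In 83 genes (41.5%, where 54.9% of all tested genes did) the ranges differed at both ages. The highest and the lowest range mean of a gene lay a median of 0.094 apart on the log2 scale at 10 weeks and 0.098 at 20 weeks, and at most 0.271 and 0.274. Single fish overlapped in every pair of ranges in all 200 genes, and a pair of ranges did not overlap at an age in 0.469% of the 15766 genes compared. The choice by a low SD also limits such a separation. At 10 weeks fish 51 to 84 had the highest mean in 94 genes (47%, against 42.13% of all eligible genes) and fish 85 and above the lowest in 85 (42.5%, against 44.4%). At 20 weeks fish 51 to 84 were highest in 91 (45.5%, against 39.19%) and fish 85 and above lowest in 75 (37.5%, against 35.43%). The order of the ranges was thus near that of all eligible genes, and nothing particular to the 200 is read from it.

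At 10 weeks the cap methyltransferase CMTR1 differed most of the named genes. Its mean was 34.5 ± 3.09 CPM (SD, n = 48) in the first range, 35.5 ± 2.67 CPM (n = 34) in the second and 29.9 ± 1.69 CPM (n = 32) in fish 85 and above, with an adjusted p of 1.07e-12 by edgeR. The last range was thus low at 10 weeks, but at 20 weeks it was the highest, with 35.5 ± 3.67, 35.5 ± 2.32 and 37.4 ± 1.65 CPM (adjusted p = 0.0246). PRPF39, a factor that acts with the U1 snRNP, was likewise lowest in fish 85 and above at 10 weeks, with 37.6 ± 2.48 CPM against 41.2 ± 4.13 and 43.6 ± 3.58 (adjusted p = 4.57e-08).

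The opposite order was found for ZBED1. It had 68.9 ± 5.99 CPM in fish 85 and above at 10 weeks, against 60 ± 5.65 and 62.6 ± 3.95 in the other ranges (adjusted p = 1.17e-08 by edgeR), and at 20 weeks its range means lay between 58.6 and 60.9 CPM (adjusted p = 0.324), although with 4 equal ranges of fish numbers it differed at 20 weeks too (adjusted p = 2.768e-08). GRB2 was highest in fish 51 to 84 at 10 weeks, with 100.8 ± 9.1 CPM against 90.2 ± 5.96 and 93.9 ± 6.45 (adjusted p = 1.49e-07). Without a name, Nfu_g_1_011941 differed most at this age, with means of 46.7, 52.6 and 43.6 CPM over the 3 ranges (adjusted p = 2.86e-16).

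At 20 weeks fish 51 to 84 stood out in several genes. KDM5B had 89.9 ± 6.6 CPM in this range, against 96.2 ± 6.01 in fish 1 to 50 and 103.7 ± 4.4 in fish 85 and above (adjusted p = 9.35e-12 by edgeR), although it had not differed at 10 weeks (means between 98.1 and 100.03 CPM, adjusted p = 0.505). DPF3 went the other way, with 31.3 ± 2.18 CPM in fish 51 to 84 against 27.7 ± 1.86 and 28.5 ± 1.68 (adjusted p = 3.30e-10). YAP1, the coactivator of the Hippo pathway that promotes growth of tissues, had 128 ± 10.9 CPM against 113.1 ± 10.5 and 116.1 ± 6.46 (adjusted p = 8.51e-08).

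MRGBP, a subunit of the NuA4 histone acetyltransferase, had its highest level at this age in fish 1 to 50, with 16.3 ± 1.48 CPM against 14.2 ± 1.38 in fish 51 to 84 and 14.9 ± 1.06 in fish 85 and above (adjusted p = 4.77e-08 by edgeR). Of the unnamed genes Nfu_g_1_001619 was higher in fish 51 to 84, with 1075 CPM against 889 and 924 (adjusted p = 1.95e-16), and so was Nfu_g_1_023240, with 39.3 CPM against 34.1 and 34.2 (adjusted p = 2.93e-12). Summed matrix markers were also lowest in fish 51 to 84 at both ages, and their part in these differences was not tested.

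**Figure D4:**
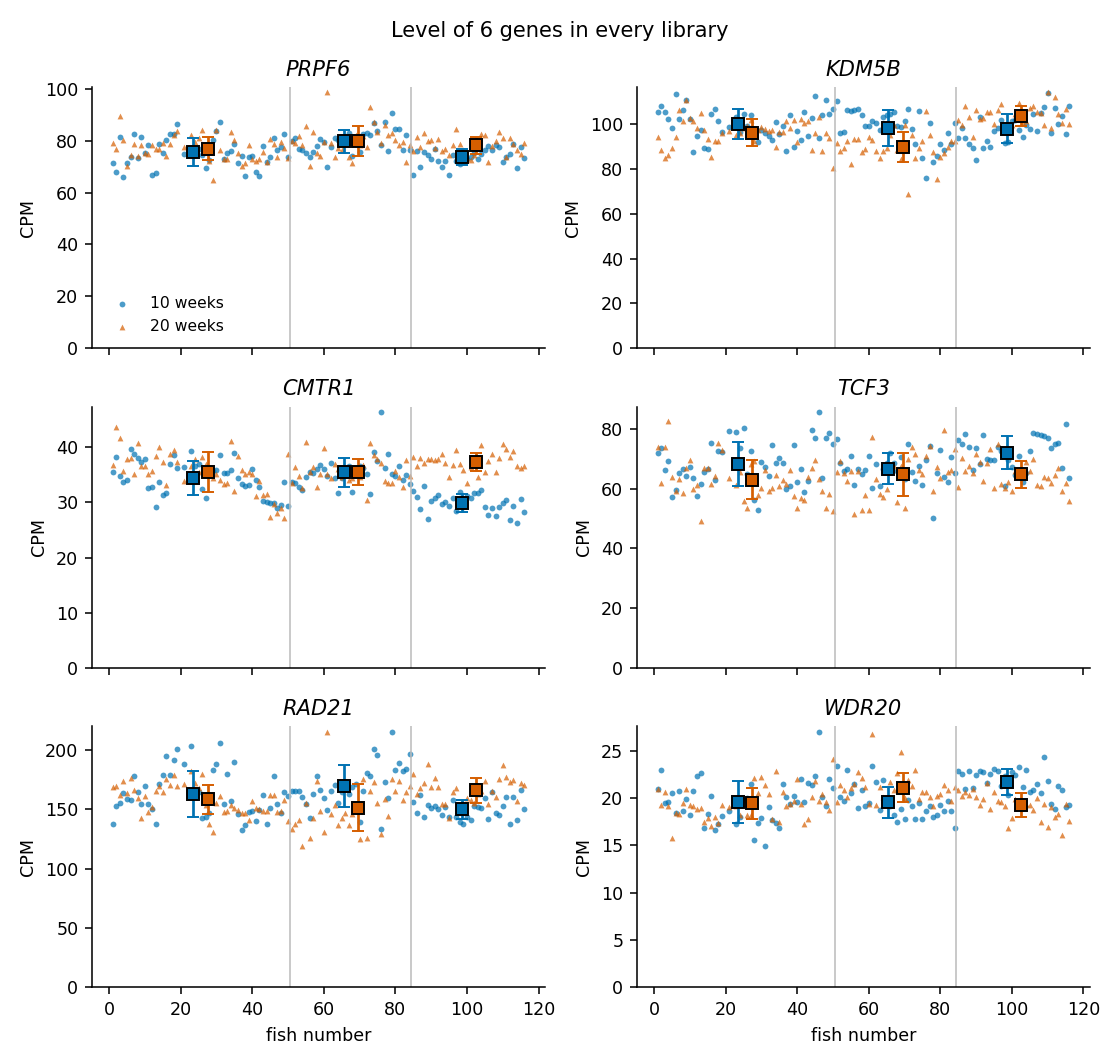
CPM of PRPF6, KDM5B, CMTR1, TCF3, RAD21 and WDR20 in every library against the number of the fish, at 10 weeks (blue circles) and 20 weeks (orange triangles), with axes from 0. Squares with bars are the mean and SD of each range at each age, and grey lines separate fish 1 to 50, 51 to 84 and 85 and above. Levels form narrow bands at both ages, and CMTR1 at 10 weeks is lower in the last range, at 29.9 CPM, than in the others.

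The change from 10 to 20 weeks was not the same in the 3 ranges. Within-fish changes of 142 of the 200 genes (71%) differed between the ranges by limma's F test, where 82.8% of all tested genes did, and 137 did without the 11 unmatched fish. In fish 1 to 50 there were 33 genes that rose and 12 that fell (22.5% of the 200, where 33.2% of all tested genes were called, 16.5% up and 16.7% down), in fish 51 to 84 there were 55 and 51 (53%, where 73.8% were called, 37.7% up and 36.1% down) and in fish 85 and above there were 60 and 51 (55.5%, where 63.8% were called, 33.4% up and 30.4% down). In 47 genes (23.5%, where 28.4% of all tested genes were) the change was called in opposite directions in 2 ranges. Of the 200 genes 4 rose in all 3 ranges, where 736 of all 17116 tested genes (4.30%) did. In all 3 ranges 1 of the 200 fell, where 689 of all tested genes (4.03%) did. The last was PPP1CC, with log2 changes of -0.07, -0.097 and -0.12, and the 4 included Nfu_g_1_017829, with 0.11, 0.21 and 0.15, and Nfu_g_1_005291, with 0.062, 0.19 and 0.13. No change was called in any range for 33 of the 200 genes, where 1189 of all 17116 tested genes (6.95%) had none. The choice by a low SD limits changes within the ranges too, and nothing is read from these shares.

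Between fish 51 to 84 and fish 85 and above, called changes were opposite in 37 genes. In 21 of them (10.5% of the 200, where 11.7% of all tested genes did) the level fell in the former and rose in the latter, and in 16 (8%, where 11.3% did) it rose in the former and fell in the latter. TBC1D23, which tethers vesicles from endosomes at the Golgi, differed most: its log2 change was 0.016 (SE 0.03) in fish 1 to 50, -0.19 (SE 0.03) in fish 51 to 84 and 0.19 (SE 0.03) in fish 85 and above, with an adjusted p of 5.35e-12 by limma. Its range means in the latter 2 crossed, from 91.4 to 80.4 CPM and from 80.5 to 92.1 CPM, while over all fish its age change was 0.0035 (adjusted p = 0.898 by edgeR).

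RAD21 behaved alike, with log2 changes of -0.034, -0.17 and 0.14 over the ranges (adjusted p = 1.67e-11 by limma), and so did PRPF39, with 0.056, -0.15 and 0.16 (adjusted p = 5.42e-11). KDM5B fell in the first 2 ranges, by 0.056 and 0.13, and rose by 0.082 in the third (adjusted p = 1.02e-06). In CMTR1 the rise was called in fish 85 and above and in no other range, with log2 changes of 0.041, 0.0016 and 0.32 (adjusted p = 6.06e-15), and the largest change of FAM21A was found in the same range, with -0.019, 0.096 and 0.22 (adjusted p = 8.65e-09).

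The reverse pattern was found in WDR20, a partner of the deubiquitinases USP12 and USP46. Its log2 change was -0.0084 in fish 1 to 50, where it was not called, 0.11 in fish 51 to 84 and -0.17 in fish 85 and above (adjusted p = 3.10e-08 by limma). YAP1 (-0.052, 0.071 and -0.18), DPF3 (-0.078, 0.15 and -0.052) and GATAD2A (0.03, 0.043 and -0.13) also had their highest change in fish 51 to 84. ZBED1 fell in fish 85 and above, by 0.23, and changed by 0.00095 and -0.045 in the others. Of the genes with the largest age change, PPP1CC (adjusted p = 0.4), ZNF362 (adjusted p = 0.301) and TCF3 (adjusted p = 0.0817) had no called difference between the ranges. TCF3 was called without the 11 unmatched fish (adjusted p = 0.0333 by limma) and with 4 equal ranges of fish numbers (adjusted p = 0.0267).

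The last comparison, after the aim of the study, related the change of each gene within a fish to the age at death, which the choice of the genes did not use and which was known for all fish but 1. Hazard ratios are given for a change larger by 0.1 on the log2 scale, since the SD of the change over fish had a median of 0.176 in the 200 genes. In the Cox model without covariates 76 of the 200 genes (38%) had an adjusted p under 0.05, where 49.4% of all tested genes had. A larger change went with higher risk in 38 genes and with lower risk in 38, where 24.3% and 25.1% of all tested genes did. WDR20 had the lowest p on the side of higher risk, with a hazard ratio of 1.32 (95% interval 1.2 to 1.45, adjusted p = 6.37e-07 by the Cox model with Benjamini-Hochberg adjustment), and YAP1 followed with 1.3 (1.16 to 1.47, adjusted p = 8.24e-05). On the side of lower risk, TBC1D23 had a hazard ratio of 0.78 (0.708 to 0.859, adjusted p = 5.31e-06) and CMTR1 one of 0.758 (0.676 to 0.849, adjusted p = 1.76e-05). For the level at 20 weeks 59 genes were called (29.5%, where 43.9% of all tested genes were), 34 with higher and 25 with lower risk, where 20.8% and 23.1% of all tested genes were.

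These relations were not called once the ranges of fish numbers were taken as strata. The median age at death was 311 days in fish 1 to 50, 217 days in the next range and 409 days in the last. All 38 genes whose larger change went with higher risk had a higher mean change in fish 51 to 84 than in fish 85 and above, and all 38 on the side of lower risk had a lower one, where 99 of the 200 genes had the higher change in fish 51 to 84. As these ranges differ in age at death, calls without strata favour such a split by themselves, and nothing is read from it. With the 3 ranges as strata of the Cox model 0 of the 200 genes were called for the change, as were 0 of all tested genes, and 14 (7%) had an unadjusted p under 0.05, where 7.78% of all tested genes had. The lowest adjusted p among the 200 was 0.174. Unmatched fish were not left out of the Cox models given here, with or without strata. The change of such a fish may not belong to its age at death, which limits these results. Of the 76 genes called without strata, 65 kept the direction of their hazard ratio with strata, in fits that share the same fish. The hazard ratio of WDR20 became 1.13 (1.004 to 1.28, adjusted p = 0.628), that of TBC1D23 0.895 (0.799 to 1.004, adjusted p = 0.66), that of YAP1 1.07 (0.939 to 1.22, adjusted p = 0.835) and that of CMTR1 0.905 (0.776 to 1.06, adjusted p = 0.796). The values depend on the limits of the ranges: with 4 equal ranges as strata the hazard ratio was 1.22 (1.08 to 1.36, adjusted p = 0.0789) for WDR20, 0.881 (0.786 to 0.987, adjusted p = 0.217) for TBC1D23, 1.13 (1.003 to 1.28, adjusted p = 0.261) for YAP1 and 0.882 (0.764 to 1.02, adjusted p = 0.347) for CMTR1. For the level at 20 weeks 0 of the 200 genes were called within ranges, where 0.391% of all tested genes were, and 21 had an unadjusted p under 0.05 (10.5%, where 14% had). What the numbers of the fish stand for is not given, so that between ranges the age at death cannot be told apart from whatever else differed.

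**Figure D5:**
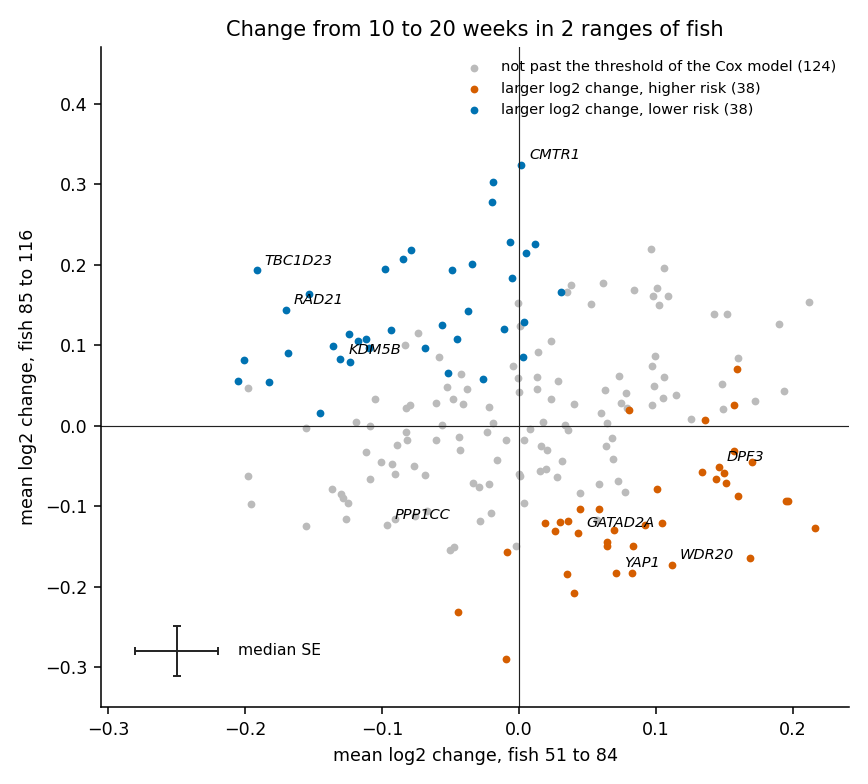
Mean log2 change from 10 to 20 weeks of the 200 most constant genes in fish 51 to 84 (n = 34, horizontal axis) and fish 85 and above (n = 32, vertical axis), with the median SE as a cross. Orange and blue points are the 38 and 38 genes whose larger change went with higher or lower risk of death in the Cox model without strata. They fall on opposite sides of the diagonal, the orange ones with the higher change in fish 51 to 84 and the blue ones with the higher change in fish 85 and above.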

How the data were processed

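The authors deposited raw whole-number counts for each gene, made from 228 libraries of the unstranded TruSeq RNA v2 kit. Named in the submitters' processing notes were featureCounts 1.5.0, TopHat2 2.1.0 and bcl2fastq 1.8.4. For genome build and annotation of the fin libraries: not given in the sources used here. All 228 columns matched 1 sample each by its description. Genes were named through gene tables of the study (5383 of 26739 identifiers), which were ordered by results from brain and are incomplete. No sequences or coordinates were used.

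TMM factors came from the 17116 genes kept by edgeR's filterByExpr (edgeR 4.0.16, R 4.3.3). The pairing of samples comes from the fish named in the labels. Age was tested by edgeR's quasi-likelihood test with the fish as a block, with the dispersion trend taken from every 20th gene, and levels between ranges by its F test. Within-fish differences of log2 CPM (prior count 1) were tested with limma 3.58.1. Cox models (survival 3.8.3) followed the study's methods, with log2 ratios of counts scaled by DESeq2 1.42.0 size factors (pseudocount 1). All tests were 2-sided, with Benjamini-Hochberg adjustment over all tested genes at 0.05. The age test, the test between ranges, the test of the change and the Cox model without strata were also run on simulated data. Simulated counts were drawn independently for each library, so that these runs cannot show how the tests behave where fish are alike. The p-values treat fish as independent and can be too small where fish with neighbouring numbers are alike. Shares of variance are sums of squares of log2(CPM + 1), and counting variance is that of Poisson counts.

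The genes described, the gene lists and the ranges were chosen with earlier results of these data known. Named in the text are, of members with a name, the 10 with the lowest SD, the 5 with the highest mean CPM, the 5 largest rises and 5 largest falls past the age test, the 4 with the lowest p between ranges at each age, the 2 with the lowest Cox p in each direction, up to 3 of each list with at least 2 members, the genes at the limit of the choice, and identifiers without a name at rank 1 or 2 of a criterion. KDM3B and BRD1, Nfu_g_1_005144, the second copies of duplicated genes, and the reference, marker and EMC7 genes were named after their values were seen.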

Additional observations from a re-analysis of the deposited data

Results flagged for a closer look

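The change from 10 to 20 weeks differed between the 3 ranges of fish numbers in 142 of the 200 genes (71%) by limma's F test (adjusted p under 0.05). Of all tested genes 82.8% did, so that such a difference is not particular to the 200. Values below are the highest minus the lowest of the 3 mean log2 changes of a gene. Among the genes of splicing, chromatin and transcription, the span was 0.082 in PRPF6, 0.317 in PRPF39, 0.213 in KDM5B, 0.224 in DPF3, 0.122 in BAZ2B, 0.176 in GATAD2A, 0.129 in MRGBP, 0.314 in RAD21 and 0.322 in CMTR1. The call of PRPF6 was lost with 4 equal ranges of fish numbers (adjusted p = 0.179) and without the 11 unmatched fish (adjusted p = 0.076), as was that of BAZ2B (adjusted p = 0.265 and 0.143). The span was 0.162 in ZNF180, 0.232 in ZBED1 and 0.254 in YAP1.

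In genes of membranes, the cytoskeleton and signalling the span was 0.384 in TBC1D23, the widest of the 200, 0.239 in FAM21A, 0.208 in FLOT2, 0.213 in WDR45B, 0.174 in PLEKHA1, 0.119 in CAPZA2, 0.101 in VPS18 and 0.13 in TAB2. The deubiquitinase USP38 had 0.153 and WDR20 had 0.284. KIAA1191 and FAM177A1 had 0.136 and 0.143. With 4 equal ranges and without the unmatched fish the calls of CAPZA2 (adjusted p = 0.104 and 0.0764) and TAB2 (adjusted p = 0.0678 and 0.0904) were lost, and that of VPS18 was lost with 4 equal ranges (adjusted p = 0.887) and without fish of low TMM factors (adjusted p = 0.0676).

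Of the genes without a name, Nfu_g_1_011941 had a span of 0.235, Nfu_g_1_023240 of 0.21, Nfu_g_1_001619 of 0.163, Nfu_g_1_021788 of 0.163, Nfu_g_1_005291 of 0.127 and Nfu_g_1_017829 of 0.099. The calls of Nfu_g_1_005291 (adjusted p = 0.232) and Nfu_g_1_021788 (adjusted p = 0.0736) were lost with 4 equal ranges. What the numbers of the fish stand for is not given, and the part of tank, date or handling was not tested.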

How the results depend on the processing

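Of the 200 genes, 52% were chosen again with library totals in place of TMM, 66.5% on the 10-week libraries, and, in alternatives chosen after seeing the data, 64% on fish 51 to 84 and 46% on fish 85 and above. The other alternatives shared between 67% and 96.5%. With 3 or with 4 ranges of fish numbers as strata, 0 genes of higher and 0 of lower risk were called for the change and for the 20-week level. Without the replicate block, 65 genes were higher and 30 lower at 20 weeks, 92 of the 98 calls were shared, and no call of the 44 genes named by rule changed. Age changes of 4 genes that never passed turned sign: ZNF180 to -0.00266 and TBC1D23 to -0.00423 without fish of low TMM factors, DPF3 to 0.00496, GATAD2A to 0.00024 and TBC1D23 to -0.0124 without the unmatched fish, and TBC1D23 to -0.000101 with DESeq2 size factors and -0.00199 with low counts kept. The cause of these differences was not tested. Over the 7 other age fits 292 of 308 values kept direction and call. Of 528 F tests between ranges, which have no direction, 475 kept their call. Counting limits genes of low level, and small changes were read with their SE.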
